A study of Mus musculus with 6 samples.

Results

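The genes examined here encode the subunits of the mitochondrial respiratory chain and ATP synthase, from both the nuclear and the mitochondrial genome. They were chosen by symbol: nuclear symbols that begin with Nduf, Uqcr, Cox4 to Cox8 or Atp5 in the forms used for subunits (without "-ps"), and mitochondrial symbols that begin with mt-Nd, mt-Co, mt-Atp or mt-Cytb. This rule took 93 of the 46603 genes in the count tables, 80 nuclear and 13 mitochondrial. Of the nuclear genes, 35 encode subunits of complex I, 8 of complex III, 18 of complex IV and 15 of ATP synthase. The remaining 4 are no subunits of these complexes: Ndufa4l2 is a paralog of the complex IV subunit Ndufa4, Cox7a2l is a supercomplex factor, and Atp5s and Atp5sl are related to ATP synthase only by name or assembly. The mitochondrial genome carries 7 members of complex I, 1 of complex III, 3 of complex IV and 2 of ATP synthase.

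EGCs (enteric glial cells, which surround the neurons of the gut) had been cultured from neurospheres, clusters of neural progenitors. These were prepared from whole E14.5 mouse intestine of the strain C57BL/6J (E14.5 is the embryonic day). There were 3 control samples without treatment and 3 samples given lipopolysaccharide (LPS), a component of the outer membrane of Gram-negative bacteria, at 100 ng/ml for 12 h. No source states that the replicates came from separate animals or separate cultures, so p-values measure the spread between these samples, which may be technical. In such mixed cultures, fewer cells of a type and less RNA per cell cannot be told apart.

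The respiratory chain passes electrons from NADH and succinate through complexes I, II, III and IV to oxygen and pumps protons across the inner mitochondrial membrane, and ATP synthase uses the returning protons to make ATP. Complexes I, III, IV and ATP synthase combine nuclear subunits, which are imported, with subunits that are transcribed and translated inside the organelle, whereas complex II is encoded in the nucleus alone. In activated myeloid cells LPS is known to shift metabolism towards glycolysis, and 2 paralogs of Ndufa4, Ndufa4l2 and AA467197 (also called Nmes1), are known as inducible genes, the former by hypoxia and the latter by inflammatory stimuli.

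Library totals ranged from 18775316 to 23664312 counts, and levels are given as CPM, the counts for each 1e6 of the scaled library size. The floor of detection was taken as 3 counts, equal to 0.124 to 0.167 CPM, which allows for counting error alone. Of 8 glial markers, Sox10 was present in every library (73.8 to 101 CPM) and Gfap was low (2.23 to 7.22 CPM). Their summed level was 626.1 to 846.1 CPM in control and 655.2 to 689.1 CPM in LPS, with S100b called lower (log2 fold change -1.91), Fabp7 higher (1.295) and 6 not called. The summed level of 15 macrophage markers, none of them at 0 in all libraries, was highest in replicate 3 of each group (13920 CPM in control and 21470 CPM in LPS, against 4233 to 5863 CPM in the other 4 libraries), with Adgre1 called higher and 14 not called (under a block on replicate number, 4 rose and 4 fell). The summed level of 8 neuronal markers was lowest in replicate 3 of each group (273.8 CPM in control and 291.1 CPM in LPS, against 439.6 to 485.5 CPM in the others). Of 8 mesenchymal markers, Dcn and Pdgfra were called higher and the other 6 had negative log2 fold changes and were not called, with a median of -0.14 over the 8 and a change of the summed mean of -2.67%. Their summed level was 15600 to 16300 CPM in control and 15120 to 15840 CPM in LPS. It was far above the summed level of the glial markers in every library. The summed level of 8 smooth muscle markers was 2449 to 2691 CPM in control and 688.8 to 963.5 CPM in LPS, and 8 of 8 were called lower. That of 10 markers of cycling cells was 429.3 to 853.9 CPM in control and 311.9 to 373.8 CPM in LPS. None of the 10 was called by the main test, and 2 were called lower with the block. All had a negative log2 fold change (median -0.82), and control replicate 3 was the highest (853.9 CPM against 429.3 and 500.9 CPM). Without replicate 3 of both groups the log2 fold changes of Mki67 and Top2a were smaller (-0.35 and -0.28, against -0.96 and -0.86). Smaller values do not mean fewer calls there, as that fit called 20.4% of all tested genes lower, against 6.71% in the main test. Of the 10, 8 had every LPS library below every control library. The part of other cell types in the results below was not tested. LPS replicate 3 and control replicate 3 are therefore given by name where they stand apart.

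The sequences of the mitochondrial genes bear on how they could be counted. Stretches of the mitochondrial genome have been copied into nuclear chromosomes, and a read from such a stretch aligns in both places. The 5′ ends of mt-Co2, which encodes cytochrome c oxidase subunit 2, and of its copy Gm28661 are shown here because the 60 bases are the same letter for letter. The mitochondrial stretch is M:7013-7072 on the plus strand and the nuclear stretch is chr1:24615506-24615565 on the minus strand, both GRCm38.

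mt-Co2: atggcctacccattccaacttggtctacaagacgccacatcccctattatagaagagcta
Gm28661: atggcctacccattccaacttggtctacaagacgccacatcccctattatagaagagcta

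The run without a difference between them was 681 bases of the 684 of mt-Co2. The annotated pseudogenes next to Gm28661 on chromosome 1 continued the map of the mitochondrial genome: Gm29216 for mt-Co1 (longest exact run 479 of 1545 bases), Gm10925 for mt-Atp6 (678 of 681), Gm28437 for mt-Co3 (783 of 784), Gm28438 for mt-Nd3 (342 of 348), Gm10222 for mt-Nd4l (294 of 297) and Gm28439 for mt-Nd4 (876 of 1378). These 7 pseudogenes lay between bases 24611535 and 24616197. They held 0 to 16 counts in any library, so the counts of the near-identical mitochondrial genes were not found at the copies either.

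The 13 mitochondrial genes fell into separate ranges of level. mt-Co1, which encodes the catalytic subunit of complex IV, had 5235, 4735 and 5619 CPM in control replicates 1, 2 and 3, the highest level of the 13. mt-Co2 had 6, 5 and 1 counts in control and 6, 7 and 4 counts in LPS. mt-Co3 had 4 to 8 counts, mt-Atp6 2 to 7, mt-Atp8 0 to 4 and mt-Nd4l 0 to 2 counts over the 6 libraries, and mt-Nd4l was at or under the floor in all of them. These 5 genes did not enter the test, and without the filter none of them was called (adjusted p = 0.543 to 0.954). mt-Nd3 entered it with 11 to 27 counts. Of all 31-base words in each transcript, 98.1% to 100% also occurred in another annotated gene for mt-Co2, mt-Co3, mt-Atp6, mt-Nd4l and mt-Nd3. The share was 0% for mt-Nd1, 6.55% for mt-Cytb, 7.36% for mt-Nd6, 13.5% for mt-Nd2 and 16.8% for mt-Nd5. It was 62.8% for mt-Nd4 and 63.9% for mt-Co1, 2 genes that were copied in part and whose counts can come only from the rest if reads with several alignments were dropped. mt-Atp8 shared 7.47% with annotated genes, and the piece of chromosome 1 between Gm28661 and Gm10925, where the map would place its copy, holds no gene of the annotation. How the authors treated reads with several alignments was not given in the sources used here.

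**Figure D1:**
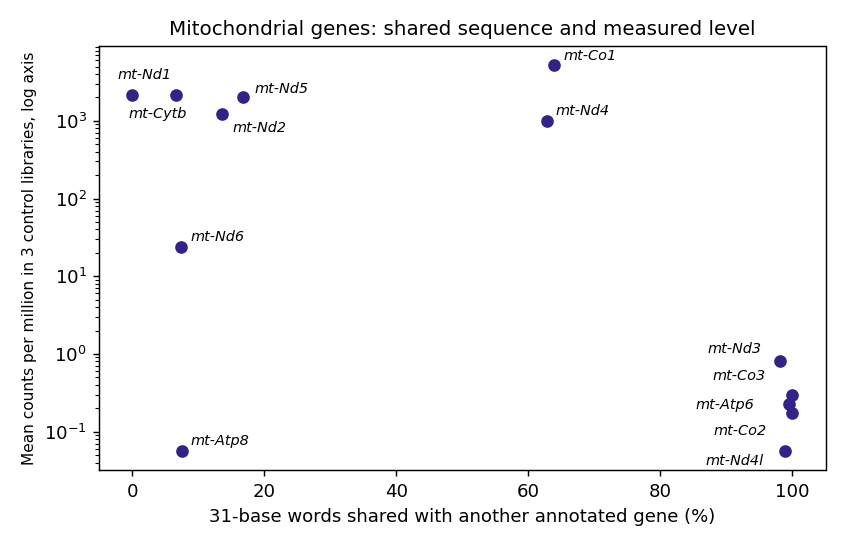
Share of 31-base words that each of the 13 mitochondrial genes has in common with another annotated gene (x axis, %) against its mean level in 3 control libraries (y axis, CPM, log axis). The 5 genes at 98.1% or more lie below 1 CPM, and mt-Atp8 is low with a share of 7.47%.

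In LPS, 3 of the 8 tested mitochondrial genes were called lower and none higher at an adjusted p under 0.05, where 6.71% of the 15226 tested genes were called lower and 9.09% higher. mt-Cytb, the mitochondrial subunit of complex III (cytochrome b), and the complex I subunits mt-Nd4 and mt-Nd5 fell, and mt-Co1 overlapped between the groups. The median log2 fold change of the 8 genes was -0.36, against -0.02 over all tested genes.

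mt-Cytb had 2360, 2014 and 2170 CPM in control and 1498, 1375 and 1322 CPM in LPS. All LPS libraries lay below all control libraries. The log2 fold change was -0.64 ± 0.11 (adjusted p = 0.0168, edgeR quasi-likelihood test), where the error of this and every later log2 fold change is its SE. mt-Nd5 had 2194, 1842 and 2052 CPM in control against 1479, 1348 and 1501 CPM in LPS (log2 fold change -0.49 ± 0.11, adjusted p = 0.0352). mt-Nd4 had 1117, 912.3 and 970.6 CPM in control against 761.2, 670.6 and 699.2 CPM in LPS (log2 fold change -0.49 ± 0.11, adjusted p = 0.0369). The groups did not overlap for either gene. Both belong to the proton-pumping membrane arm of complex I.

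mt-Nd1 had 2256, 2017 and 2164 CPM in control and 1750, 1572 and 1660 CPM in LPS (log2 fold change -0.37 ± 0.10, adjusted p = 0.0564). mt-Nd2 had 1427, 1129 and 1117 CPM in control and 1065, 904.2 and 900.7 CPM in LPS (log2 fold change -0.36 ± 0.14, adjusted p = 0.141). Neither passed the threshold in the main test, although the groups did not overlap. Among the alternatives mt-Nd1 was called lower in 6 and mt-Nd2 in 1. With the replicate number as a block, both were called (adjusted p = 0.0146 for mt-Nd1 and 0.0184 for mt-Nd2), and the count of mitochondrial genes called lower was 5 of 8, where 14.9% of all tested genes were called lower and 15.4% higher in that fit. In all, 5 of the 8 had every LPS library below every control library, a pattern of 19.4% of all tested genes, and none had the opposite one, a pattern of 19.3%.

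mt-Co1, the most abundant of these transcripts, was not called. Its LPS libraries had 4669, 4502 and 5445 CPM, within or close to the control range given above, and replicate 3 was the highest in both groups. The log2 fold change was -0.09 ± 0.13 (SE, adjusted p = 0.684). Each LPS library was below the control library of the same number, and with the replicate block the adjusted p was 0.317. mt-Nd6, the member on the other strand of the mitochondrial genome, had 33.6, 24.4 and 13.9 CPM in control and 30.4, 31.5 and 10.5 CPM in LPS, with replicate 3 lowest in both groups (log2 fold change 0.01 ± 0.50 SE, adjusted p = 0.988, a direction that turned under 8 alternatives). Its end overlaps that of mt-Nd5 (M:13552-14070 against M:11742-13565), and the strand setting of the counting was not given. The low mt-Nd3 differed by -0.20 ± 0.34 on the log2 scale (adjusted p = 0.730).

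**Figure D2:**
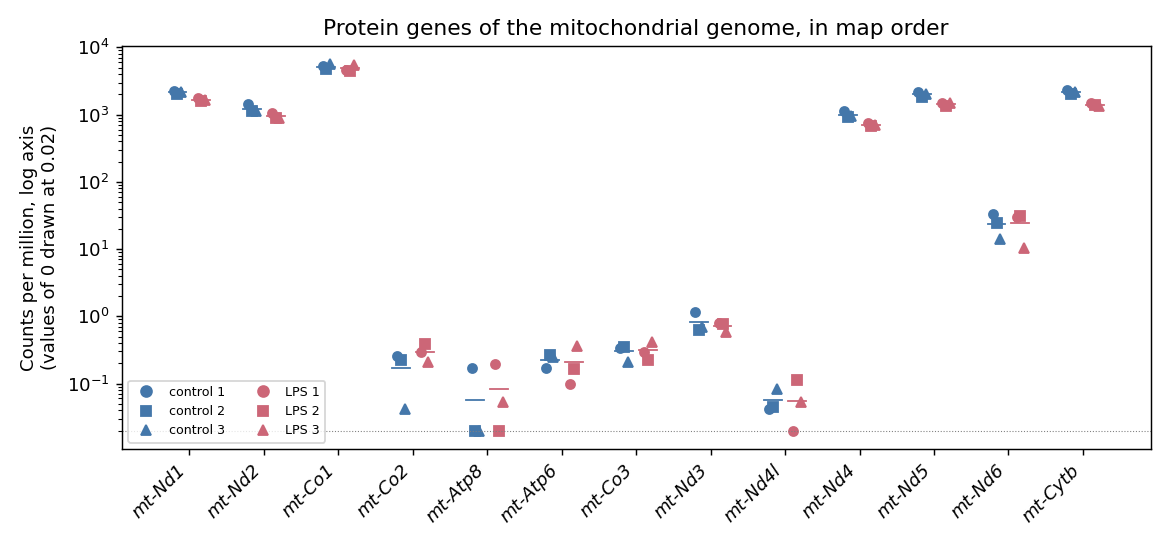
Level of the 13 mitochondrial protein genes in map order (y axis, CPM on a log axis; values of 0 drawn at 0.02), with 1 point per library and a bar at each group mean. The 3 LPS libraries lie below the 3 control libraries for mt-Nd1, mt-Nd2, mt-Nd4, mt-Nd5 and mt-Cytb, and overlap them for mt-Co1 and mt-Nd6.

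Ratios within a library do not depend on scaling. There were 0.451, 0.425 and 0.386 counts of mt-Cytb for each count of mt-Co1 in control and 0.321, 0.305 and 0.243 in LPS. The groups did not overlap, and the exact two-sided permutation test gave p = 0.1, the smallest value that 3 against 3 libraries allow. This ratio was chosen after the values of both genes had been seen. The 13 mitochondrial genes together took 1.58%, 1.34% and 1.44% of all counts in control and 1.09%, 0.994% and 1.06% in LPS. Nearly none of these counts came from mt-Co2, mt-Co3, mt-Atp6, mt-Atp8, mt-Nd4l and mt-Nd3, whose counts were low as given above. The mean share fell by 0.409 percentage points (1.46% ± 0.118 in control and 1.05% ± 0.0484 in LPS, SD, n = 3, exact p = 0.1, the smallest possible). The 80 nuclear genes took 0.616%, 0.640% and 0.595% in control and 0.552%, 0.552% and 0.569% in LPS, which also did not overlap (exact p = 0.1). These are shares of raw counts. Without composition factors the median log2 fold change of all tested genes was -0.18 and that of the nuclear members -0.17, so that both moved together. For each nuclear count there were 2.57, 2.10 and 2.42 mitochondrial counts in control and 1.97, 1.80 and 1.86 in LPS (exact p = 0.1, the smallest possible). This last ratio was not among the planned comparisons either.

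**Figure D3:**
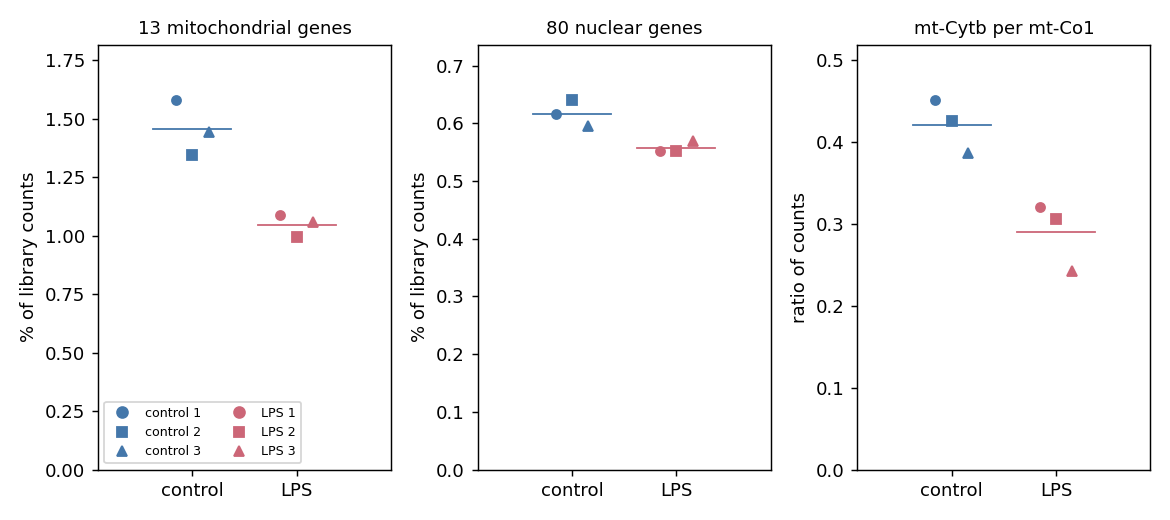
Share of all counts of a library taken by the 13 mitochondrial and the 80 nuclear genes (left and middle, % of counts) and counts of mt-Cytb for each count of mt-Co1 (right), by library, with bars at the group means. In each panel the 3 LPS libraries lie below the 3 control libraries.

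The mitochondrial calls were kept without LPS replicate 3. mt-Cytb lost its call without control replicate 1 or 2 or LPS replicate 1 or 2 (adjusted p up to 0.0844), and mt-Nd4 and mt-Nd5 lost theirs without any of the libraries other than LPS replicate 3 (adjusted p up to 0.143 and 0.142). Without replicate 3 of both groups, a comparison added after the data had been seen, the 3 genes stayed lower (adjusted p = 0.00234 for mt-Cytb, 0.0129 for mt-Nd4 and 0.00641 for mt-Nd5), in a fit that called 20.4% of all its tested genes lower.

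Nuclear subunits stayed close to their control levels. Of the 80 nuclear genes, 76 entered the test, and 1 was called higher (Ndufa4l2) and 2 lower (Ndufb11 and Atp5s), fewer than the 9.09% and 6.71% of all tested genes would give. Without the 4 genes that are no subunits, 1 of 72 was called, Ndufb11. The median log2 fold change of the 76 was -0.02, as for all tested genes, and 67 (88.2%) lay within 0.25 of 0 on the log2 scale, against 45.9% of all tested genes, among which are many of lower counts. A total of 10 nuclear members had every LPS library above every control library and 11 the reverse, against 19.3% and 19.4% of all tested genes.

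The sums by complex showed the same. As means ± SD of 3 control and of 3 LPS libraries, complex I subunits of the nucleus summed to 1599 ± 45.8 and 1580 ± 50.2 CPM, complex III to 608.9 ± 15.7 and 606.4 ± 16 CPM, complex IV to 1121 ± 39.8 and 1160 ± 79.2 CPM, and ATP synthase to 2385 ± 67.9 and 2410 ± 143.5 CPM. Each pair of means lay within 1 SD of each other. The median log2 fold change was -0.04 over 35 complex I genes, -0.01 over 8 complex III genes, -0.01 over 14 tested complex IV genes and 0.01 over 15 ATP synthase genes.

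**Figure D4:**
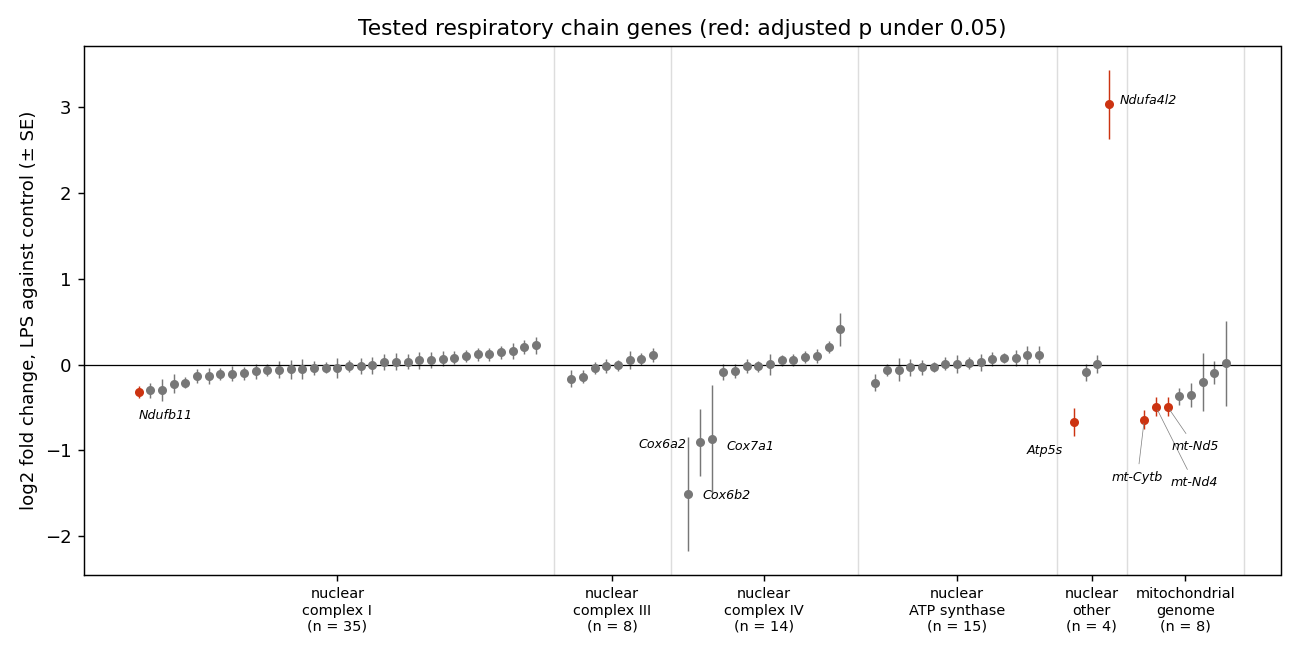
Log2 fold change of LPS against control ± SE (y axis) for the 76 nuclear and 8 mitochondrial genes that were tested, ordered by size within each complex; red points passed an adjusted p of 0.05. Most nuclear subunits lie along 0. Cox5a (0.41) lies above it, and Ndufb11 (-0.32), Ndufb10 (-0.30) and Ndufb4 (-0.29) lie below it. Further below are 3 tissue-specific complex IV paralogs with wide errors. The mitochondrial genes lie mostly below 0.

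The most abundant nuclear transcripts, compared per kilobase of exon, were Cox8a, a small subunit of complex IV, at 204.6 ± 6.62 CPM per kb in control and 201.8 ± 16 in LPS, and Atp5b, the catalytic beta subunit of ATP synthase, at 181 ± 5.04 and 189.7 ± 9.51 (SD, n = 3). Atp5a1, the alpha subunit, had 161.1 ± 9.43 and 157.5 ± 12.37 CPM per kb, and Atp5c1, the gamma subunit that forms the turning stalk, 82.8 ± 3.0 and 80.9 ± 6.4. In complex IV these were followed by Cox6a1 (158 ± 2.51 and 163.9 ± 10.1) and Cox6b1 (151.2 ± 4.06 and 161.8 ± 14.3). The leading genes of complex III were Uqcr10 (81.2 ± 6.30 and 72.4 ± 5.64), Uqcrb (78.8 ± 1.74 and 81.7 ± 10.8) and Uqcrh, the hinge protein (69.7 ± 3.82 and 68.0 ± 1.61), and those of complex I were Ndufa2 (77.2 ± 3.65 and 83.7 ± 3.19), Ndufa1 (68.9 ± 1.3 and 74.9 ± 3.75) and Ndufc2 (64.1 ± 1.13 and 73.7 ± 6.26 CPM per kb). None of these 12 was called. On the same scale mt-Co1 had 3363 CPM per kb in control, mt-Nd1 2242, mt-Cytb 1907, mt-Nd2 1179, mt-Nd5 1113 and mt-Nd4 725.6, all above every nuclear member. The full exon length was used, so mt-Co1 and mt-Nd4, which were copied in part, are set too low if reads with several alignments were dropped.

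Within complex I, 1 nuclear subunit was called lower. Ndufb11, an accessory subunit of the membrane arm, had 52.8, 56.8 and 53.3 CPM in control and 44.0, 41.5 and 44.8 CPM in LPS. The groups did not overlap, and the log2 fold change was -0.32 ± 0.07 (SE, adjusted p = 0.0352). Ndufb10, another subunit of that arm, had 49.4, 53.4 and 49.4 CPM in control and 40.8, 38.5 and 44.2 CPM in LPS (log2 fold change -0.30 ± 0.08, adjusted p = 0.0624). Ndufb10 was called with upper-quartile or library-size scaling, with DESeq2, without LPS replicate 3 and without replicate 3 of both groups (adjusted p = 0.0221, 0.0167, 0.0224, 0.0308 and 0.00904). Ndufb4 had 8.69, 8.54 and 8.39 CPM in control and 7.61, 6.46 and 6.80 CPM in LPS (log2 fold change -0.29 ± 0.13, adjusted p = 0.169), and Ndufb2 21.9, 22.7 and 18.5 CPM in control and 18.5, 17.9 and 17.5 CPM in LPS (log2 fold change -0.22 ± 0.11, adjusted p = 0.216). On a linear scale the LPS level was 0.799 of control for Ndufb11 and 0.812 for Ndufb10. The call of Ndufb11 was lost without any single library other than LPS replicate 3 (adjusted p up to 0.156) and kept without replicate 3 of both groups (adjusted p = 0.00994), and its exons overlap those of Rbm10 on the opposite strand.

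Among the other members with the largest differences was Cox5a, a nuclear subunit of complex IV, which had 92.2, 98.5 and 98.9 CPM in control and 104.9, 111.7 and 167.9 CPM in LPS (log2 fold change 0.41 ± 0.19, adjusted p = 0.199). LPS replicate 3 was far above the other LPS libraries, though the groups did not overlap. The log2 fold change of Cox5a was 0.16 without LPS replicate 3 (adjusted p = 0.158) and 0.21 without replicate 3 of both groups (adjusted p = 0.0391). Atp5s, whose product is known as factor B of ATP synthase, had 7.92, 8.46 and 6.28 CPM in control and 4.70, 4.79 and 4.76 CPM in LPS. The LPS libraries nearly coincided below the control libraries, and Atp5s fell by 0.67 on the log2 scale (SE 0.16, adjusted p = 0.0440). Its call was lost without any library but control replicate 3 (adjusted p up to 0.171).

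Larger differences were found among paralogs. Several complex IV subunits and Ndufa4 have paralogs that serve in muscle, testis, lung or under low oxygen, and these were compared with the ubiquitous forms in 7 pairs. Ndufa4l2 had 1.14, 1.33 and 1.69 CPM in control and 14.6, 13.5 and 5.97 CPM in LPS. All LPS libraries lay above all control libraries, with LPS replicate 3 the lowest of them. Ndufa4l2 rose 8.15-fold (log2 fold change 3.03 ± 0.40, SE, adjusted p = 0.00839), and the call was lost without control replicate 2 (adjusted p = 0.0593). Its share of Ndufa4 and Ndufa4l2, per kilobase of exon, was 1.51%, 1.66% and 2.48% in control and 17.5%, 15.8% and 8.24% in LPS.

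AA467197 is the other paralog of Ndufa4, is outside the symbol rule and carries the microRNA gene Mir147 in its transcript. It had 0.848, 0.841 and 1.69 CPM in control and 10.4, 15.1 and 13.7 CPM in LPS, again without overlap. AA467197 rose by 3.52 ± 0.35 on the log2 scale (adjusted p = 0.00306), and in it LPS replicate 3 was among the high libraries. Its share of Ndufa4 and AA467197 was 1.02%, 0.961% and 2.27% in control and 12.1%, 15.96% and 15.76% in LPS. Ndufa4 itself, which belongs to complex IV although it is named after complex I, had 94.5, 99.5 and 83.9 CPM in control and 86.5, 91.3 and 83.8 CPM in LPS (log2 fold change -0.09 ± 0.09, adjusted p = 0.546), and so remained the most abundant of the 3 in every library. For both shares the exact two-sided permutation test gave p = 0.1, the smallest possible, and 0.233 after adjustment over the 7 pairs.

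Cox4i2, the form of subunit 4 that is known from lung and from low oxygen, had 4, 7 and 3 counts in control and 32, 28 and 4 counts in LPS, and was too low for the test. LPS replicates 1 and 2 were high and LPS replicate 3 lay in the control range, so that the groups overlapped. Without LPS replicate 3 Cox4i2 entered the test and was called higher (log2 fold change 2.94, adjusted p = 0.00913), and in the other fits that tested it with LPS replicate 3 it was not called (adjusted p = 0.120 to 0.245). Its share of Cox4i1 and Cox4i2 was 0.162%, 0.262% and 0.109% in control and 1.55%, 1.42% and 0.188% in LPS (exact p = 0.2, adjusted over 7 pairs 0.233). The ubiquitous Cox4i1 had 205.4, 232.3 and 223.5 CPM in control and 197.4, 212.8 and 218.4 CPM in LPS (log2 fold change -0.07 ± 0.08, adjusted p = 0.597).

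The muscle and testis forms of complex IV subunits were low in both groups. Cox6a2, the form of heart and skeletal muscle, had 0.975, 0.841 and 1.16 CPM in control and 0.296, 0.501 and 0.785 CPM in LPS, without overlap (log2 fold change -0.91 ± 0.39, adjusted p = 0.176). Cox7a1, also a muscle form, had 0.297, 0.487 and 1.24 CPM in control and 0.247, 0.334 and 0.523 CPM in LPS, with replicate 3 the highest in both groups (log2 fold change -0.87 ± 0.63, adjusted p = 0.395, and -0.072 on the log2 scale without control replicate 3). Cox6b2, known from testis, had 5.68, 3.98 and 1.65 CPM in control and 2.32, 1.11 and 0.523 CPM in LPS. It was lowest in replicate 3 of both groups, and its log2 fold change of -1.505 ± 0.661 was not called (adjusted p = 0.181) but was called with the replicate block (log2 fold change -1.56, adjusted p = 0.0111). Without LPS replicate 1 the log2 fold change of Cox6b2 was -2.197, and without control replicate 1 it was -1.074. The summed smooth muscle markers, given above, were lower in all LPS libraries, and their part in the levels of the muscle forms was not tested. For Cox7a1 the groups overlapped. Cox8b had 0 to 11 counts and was not tested. Cox8c and Cox7b2 had 0 counts in all 6 libraries, which allows up to 3 counts in each, or 0.124 to 0.167 CPM. Over the 5 pairs of complex IV forms the adjusted exact p was 0.233 to 0.4, and none could pass the threshold with 3 against 3 libraries.

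**Figure D5:**
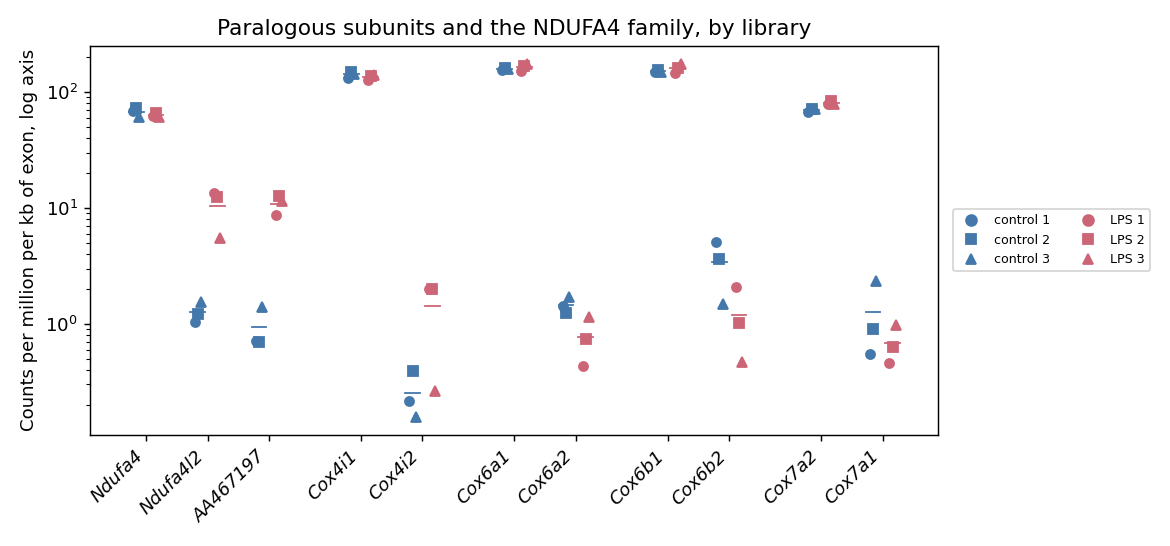
Level of paralogous genes per kilobase of exon (y axis, CPM per kb, log axis), by library, with bars at the group means. Ndufa4l2 and AA467197 are higher in all 3 LPS libraries, Cox4i2 in 2 of 3, and the ubiquitous forms overlap between the groups except Cox7a2.

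Promoters of the nuclear members were read for letters of factors known to act on respiratory genes: nuclear respiratory factor 1 (NRF1), the ETS family that includes GABPA, and YY1. The window ran from 250 bases before to 50 bases after the start that RefSeq gives (GRCm38.p6), and both strands were searched. All 80 nuclear members were matched, 3 of them by an older symbol, and 66 had a promoter entry, with 72 entries in all. Parts of 2 of them are shown, in lower case with the motif letters in capitals. That of Ndufb11, the called subunit, is chrX:20617810-20617839 on the minus strand and holds the YY1 letters at position -211 from the start. That of Cox6a1, whose level did not change detectably, is chr5:115348982-115349208 on the minus strand and holds NRF1 letters at positions -162 and -117, the latter as the form with an open base.

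Ndufb11: caccaacacAAAATGGCGacgagaagagag
Cox6a1: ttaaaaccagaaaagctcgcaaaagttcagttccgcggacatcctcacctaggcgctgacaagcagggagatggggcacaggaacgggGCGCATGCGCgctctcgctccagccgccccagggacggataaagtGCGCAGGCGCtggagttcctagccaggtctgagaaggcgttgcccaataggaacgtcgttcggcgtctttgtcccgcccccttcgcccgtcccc

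The palindromic NRF1 letters, GCGCA followed directly by TGCGC, were in 5 of 72 member promoters (6.94%) and in 0.971% of all 32851 promoters. With any base in place of the middle A, a form that includes the palindrome, they were in 16 (22.2%) and in 4.603%. The ETS letters CCGGAAG were in 14 (19.4%) and in 8.86%, and the YY1 letters AANATGGCG in 12 (16.7%) and in 2.38%. Promoters of the tested genes, which are those with expression here, held the 4 motifs in 1.87%, 8.99%, 15.6% and 4.44%. A match describes letters only. The median log2 fold change of tested members was -0.02 with and -0.02 without the NRF1 form with an open base, -0.03 with and -0.0029 without the ETS letters, and 0.02 with and -0.03 without the YY1 letters. Of the factors themselves, Nrf1 had a log2 fold change of 0.05 ± 0.08 (adjusted p = 0.731), Gabpa -0.06 ± 0.07 (adjusted p = 0.629) and Yy1 0.22 ± 0.07 (adjusted p = 0.100). None of them was called, and Yy1 was called with the replicate block (adjusted p = 0.0401).

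The other genes of the pathway were read from 9 lists with 119 genes outside the rule, of which 112 were tested, 6 called higher and 2 lower, a smaller share than the 9.09% and 6.71% of all tested genes. Their median log2 fold change was 0.02. With the replicate block the counts were 12 and 7, again a smaller share than the 15.4% and 14.9% of all tested genes. Among 13 tested genes of complex II and of electron carriers, 2 were called higher. Cycs, cytochrome c, had 36.6, 39.5 and 38.7 CPM in control and 54.6, 49.3 and 69.5 CPM in LPS (log2 fold change 0.59 ± 0.14, adjusted p = 0.0402). Sqrdl, the sulfide:quinone oxidoreductase that feeds electrons from sulfide into the chain, had 21.7, 21.9 and 27.6 CPM in control and 57.8, 57.8 and 43.5 CPM in LPS (log2 fold change 1.16 ± 0.16, adjusted p = 0.00941). The groups did not overlap for either. The 4 subunits of complex II were not called, with log2 fold changes of -0.13 for Sdha, 0.24 for Sdhb, -0.09 for Sdhc and 0.09 for Sdhd.

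Few assembly factors were called. Of 14 complex I factors, Ndufaf7, a methyltransferase, fell from 17.8, 17.2 and 16.2 CPM to 13.6, 11.7 and 10.6 CPM (log2 fold change -0.51 ± 0.13, adjusted p = 0.0452), and Tmem126b was called lower with the block (log2 fold change -0.41, adjusted p = 0.0343) and without LPS replicate 3 (adjusted p = 0.0121). Of 6 complex III factors, Ttc19 rose from 25.8, 22.8 and 23.2 CPM to 31.7, 34.6 and 29.9 CPM (log2 fold change 0.42 ± 0.10, adjusted p = 0.0387), and Bcs1l was called lower with the block (log2 fold change -0.45, adjusted p = 0.0498) and without LPS replicate 3 (adjusted p = 0.0401). Of 22 tested complex IV factors none was called, whereas with the block Cox14 and Cox20 were called lower and Higd1a higher (adjusted p = 0.0421, 0.0370 and 0.0227). The largest difference among them was that of Higd1a, known from the response to low oxygen, with 35.5, 35.6 and 25.5 CPM in control and 108.6, 135.3 and 40.0 CPM in LPS, where LPS replicate 3 lay close to control (log2 fold change 1.55 ± 0.45, adjusted p = 0.0690, and 0.00298 without LPS replicate 3). Of 6 genes of ATP synthase assembly and inhibition, Atpif1, the inhibitor that stops ATP synthase from running in reverse, fell from 95.0, 105.5 and 108.2 CPM to 71.6, 77.2 and 75.5 CPM (log2 fold change -0.46 ± 0.08, adjusted p = 0.0171).

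Of 29 tested genes that copy, transcribe and process the mitochondrial genome, 1 was called, Pnpt1, the polynucleotide phosphorylase of mitochondria that degrades RNA. It had 36.6, 36.5 and 35.4 CPM in control and 59.1, 56.7 and 81.0 CPM in LPS (log2 fold change 0.86 ± 0.15, adjusted p = 0.0184). With the block Slirp, which binds mitochondrial mRNA, and Tbrg4 were called higher as well (log2 fold change 0.60 and 0.39, adjusted p = 0.0187 and 0.0171). Tfam, which packages and helps transcribe mitochondrial DNA, had a log2 fold change of 0.13 ± 0.08 (adjusted p = 0.292), Polrmt, the mitochondrial RNA polymerase, 0.02 ± 0.09 (adjusted p = 0.927) and Lrpprc, which stabilizes mitochondrial mRNA, -0.19 ± 0.07 (adjusted p = 0.113). Of 14 tested regulators of nuclear respiratory genes, 1 was called, and with the block Yy1 and Pprc1 were called higher as well (adjusted p = 0.0401 and 0.0187). Hif1a, the oxygen-regulated factor, rose from 303.0, 292.9 and 271.5 CPM to 975.5, 996.3 and 651.3 CPM (log2 fold change 1.60 ± 0.18, adjusted p = 0.00509), with LPS replicate 3 the lowest of the LPS libraries as for Ndufa4l2. Ppargc1a, the coactivator known to drive mitochondrial biogenesis, had 7.08, 8.54 and 1.36 CPM in control and 2.17, 1.62 and 1.67 CPM in LPS. Control replicate 3 lay with the LPS libraries, and Ppargc1a was not called (log2 fold change -1.63 ± 0.65, adjusted p = 0.150). Without control replicate 3 it was called lower (log2 fold change -2.08, adjusted p = 0.00783). Of 7 tested carriers and uncoupling proteins none was called, and with the block Slc25a5 was called higher and Ucp2 lower (adjusted p = 0.0345 and 0.0393).

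The calls of Cycs, Ndufaf7 and Ttc19 did not survive the loss of most single libraries (adjusted p up to 0.132, 0.163 and 0.155), those of Sqrdl and Pnpt1 were lost without control replicate 1 or 2, and that of Atpif1 without control replicate 2 or LPS replicate 1 or 2. Those of Hif1a and AA467197 were kept without each library in turn. Without replicate 3 of both groups, 17 genes of the lists were called higher and 15 lower, in a fit that called 22.6% of all tested genes higher and 20.4% lower. Of the pathway genes named above without a call by the main test, Sdha, Tmem126b, Bcs1l, Cox14, Cox20, Higd1a, Lrpprc, Slirp, Tbrg4, Ppargc1a, Pprc1, Yy1, Slc25a5 and Ucp2 were called in that fit, as were the members mt-Nd1, Ndufb2, Ndufb10, Cox4i2, Cox5a, Cox6b2 and Cox7a2. The members Ndufs1 and Atp5h were called lower there as well (log2 fold change -0.25 and -0.29, adjusted p = 0.0102 and 0.0225).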

How the data were processed

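Poly(A) RNA of 6 EGC samples was sequenced with a stranded kit. Per the labels and the submitters' processing notes, the authors trimmed with cutadapt 1.15, used Bowtie2 2.3.3.1, STAR 2.5.2b (GRCm38), SAMtools 1.5 and featureCounts 1.5.3. The strand setting, treatment of reads with several alignments and annotation release are not given in the sources used here. The deposited values are raw counts per gene.

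Genes were filtered with filterByExpr (minimum count 10, total 15), scaled with TMM factors (0.917 to 1.08) and compared with the edgeR 4.0.16 quasi-likelihood test, with no term but the group and p-values adjusted by Benjamini-Hochberg over 15226 genes (R 4.3.3). SE is the absolute log2 fold change divided by the square root of F. Members and lists were chosen with earlier results of these data known. Named were all called members, all mitochondrial members, the 10 nuclear members with the largest differences, the 3 most abundant of each complex, paralog pairs, called list genes (at most 4 in a list) and members at 3 counts or fewer; other named genes are examples chosen after their values were seen. Coordinates, lengths and transcripts are from GENCODE M21 and promoters from RefSeq. Shares were compared with exact permutation tests. The test was also run on simulated data, where it missed small changes, so a gene without a call may still have changed.

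What the replicate numbers share is not in the labels. Deviations from the group means correlated between same-numbered libraries (r = 0.513, 0.334 and 0.613, all over 0.1). The highest r between different numbers was 0.419, between 1 and 2, which is above the 0.334 of number 2. The numbers were taken to pair the samples, from the data alone, in the replicate block only. The main test and the exact tests did not use the pairing. Alternatives were other scaling (RLE, upper quartile, library size alone, or without mitochondrial genes), other filters, DESeq2 1.42.0, the edgeR exact test, limma-voom (limma 3.58.1), the replicate block, each library left out, and, added later, replicate 3 of both groups left out.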

Additional observations from a re-analysis of the deposited data

How the results depend on the processing

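The median log2 fold change of nuclear members (-0.02) was -0.12 with upper-quartile and -0.17 with library-size scaling, where that of all tested genes was -0.12 and -0.18, and ranged from -0.04 to 0.02 without single libraries. That of mitochondrial members (-0.36) was -0.52 with library size alone and -0.13 without the filter, which adds the 5 genes near the floor, and ranged from -0.42 to -0.27 without single libraries. Nuclear members called higher (1) were 2 with DESeq2 and 4 without replicate 3 of both groups, with 0 to 2 without single libraries. Nuclear members called lower (2) were 4 with upper-quartile scaling, 6 with library size, 0 without the filter, 4 with DESeq2, 1 with the exact test, 1 with limma-voom and 7 without replicate 3 of both groups, with 0 to 3 without single libraries. With the replicate block 3 nuclear members were called lower, and mitochondrial members called lower (3) were 5. Without single libraries they were 0 to 3, with 0 without control replicate 1 or 2 or LPS replicate 1 or 2 and 1 without control replicate 3. None was called higher under these alternatives. List genes called higher (6) were 13 with DESeq2, 12 with the replicate block, 17 without replicate 3 of both groups and 2 to 8 without single libraries. Those called lower (2) were 5 with upper-quartile scaling, 8 with library size, 1 without the filter, 4 with DESeq2, 1 with the exact test, 7 with the block, 15 without replicate 3 of both groups and 0 to 5 without single libraries. With the replicate block, of the genes named in the text, mt-Nd1, mt-Nd2, Cox6b2, Higd1a, Yy1, Cox14, Cox20, Slc25a5, Ucp2, Tmem126b, Bcs1l, Slirp, Tbrg4 and Pprc1 were called in addition, and no other call of a named gene changed. Of all tested genes, 9.09% were called higher and 6.71% lower, against 13.65% and 10.99% with DESeq2, 15.4% and 14.9% with the block, 22.6% and 20.4% without replicate 3 of both groups, 10.44% lower with upper-quartile and 13.49% lower with library-size scaling. The share of member promoters with the ETS letters was 5.56% when the sense strand alone was read, against 4.767% of all promoters read in that way. mt-Nd6 had a log2 fold change of -0.084 with upper-quartile scaling, -0.14 with library size, -0.00450 without the filter, -0.053 with limma-voom, -0.045 with the replicate block and -0.25 to 0.37 without single libraries, and mt-Nd3 -0.36 to 0.12 without single libraries. The cause of these moves was not tested, apart from the added genes named above. The pair shares and the shares of counts on members kept their direction under their alternatives. The counts of mt-Co2, mt-Co3, mt-Atp6, mt-Atp8, mt-Nd4l, Cox8b and Cox4i2 were too low for the main test, and Cox4i2 was called higher without LPS replicate 3.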
